A study of Mus musculus with 3 samples.

Results

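The genes described here encode hemoglobin and the proteins that make and shape the red blood cell. They are the adult globin genes Hba-a1, Hba-a2, Hbb-bs and Hbb-bt, the heme synthesis gene Alas2, the red cell membrane genes Slc4a1 and Epb42, and the erythroid transcription factor gene Klf1. They were taken by gene symbol from the table of raw counts, which lists all 8 of them among 20937 genes. RNA was sequenced from the whole incisor enamel organ (EO), the epithelium that forms enamel, of mice aged 4 weeks, in 3 libraries with 1 library per genotype. Stim1 cKO was AmelX-iCre+; Stim1 fl/fl, in which Cre under amelogenin control removes both Stim1 alleles in ameloblasts and leaves Stim1 in the other cells of the sample. Stim1 HT was AmelX-iCre+; Stim1 fl/wt, with removal of a single allele, and Stim1 Ctrl was AmelX-iCre-; Stim1 fl/fl, without removal. STIM1 is the calcium sensor of the endoplasmic reticulum that opens store-operated channels. As no genotype had a replicate, the spread between mice of the same genotype is unknown and no difference below has a replicate check.

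Total counts were 20216507 to 28265960 per library, and every listed gene had at least 1 count in each of them. Expression levels are given as CPM, counts scaled by the TMM-adjusted size of the library. The detection floor was set at 3 counts, or 0.117 to 0.152 CPM. The targeted gene Stim1 was at 72.8 CPM in Stim1 cKO EO, 129 CPM in Stim1 HT EO and 186 CPM in Stim1 Ctrl EO. The ameloblast genes Amelx, Ambn and Enam were present in each library, and the defining genes of red cell precursors were detected as well. Following the grouping of the paper, Stim1 HT and Stim1 Ctrl served together as controls for Stim1 cKO in edgeR's quasi-likelihood test over 18702 genes, with Benjamini-Hochberg adjustment. Genes with an adjusted p under 0.01 and a change over 2-fold count as called. All 8 genes passed the filter on low counts. In bulk RNA, fewer cells of a type and less RNA per cell cannot be told apart.

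Red blood cells arise from nucleated erythroblasts in the bone marrow, which switch on the globin genes, the heme pathway and the proteins of the membrane skeleton under factors such as GATA1 and KLF1. The nucleus is then expelled, and the reticulocyte enters the blood with its remaining RNA, much of it globin RNA. Globin RNA is therefore common in any tissue that holds blood, whereas RNA of the erythroid transcription factors belongs mainly to nucleated precursors. Transcripts of the membrane genes and of Alas2 are made in precursors and are partly kept in reticulocytes.

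The alpha globin genes are neighbours on chromosome 11 of GRCm38 in GENCODE M21, Hba-a1 from 32283511 to 32284465 and Hba-a2 from 32296489 to 32297298. The beta globin genes lie on chromosome 7, Hbb-bs from 103826534 to 103828096 and Hbb-bt from 103812524 to 103813996. Within each pair the coding sequences are almost the same, which bears on how reads could be divided between them. The coding sequences of the alpha pair differ at 1 of 426 bases, C381T, and those of the beta pair at 1 of 441 bases, C417T, counted from the first base of the start codon, with the letter of Hba-a1 or Hbb-bs first. The stretches around these positions, with the differing base in capitals, run as follows.
Hba-a1: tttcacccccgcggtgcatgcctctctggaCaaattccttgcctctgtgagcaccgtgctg
Hba-a2: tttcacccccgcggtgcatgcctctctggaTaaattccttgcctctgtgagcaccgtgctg
Hbb-bs: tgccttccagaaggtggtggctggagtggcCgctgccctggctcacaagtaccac
Hbb-bt: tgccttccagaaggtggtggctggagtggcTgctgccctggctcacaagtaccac

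Of all stretches as long as a read in the annotated mRNA of Hba-a1, 50.5% also occur unchanged in Hba-a2, and 67.6% of those in Hba-a2 occur in Hba-a1. The corresponding shares were 60.6% for Hbb-bs and 52.8% for Hbb-bt. How reads that match both genes were counted is not given in the sources used here, so the split within each pair is uncertain and the sum of the pair is the safer value.

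Hba-a1 had 7023 counts in Stim1 cKO EO, 15131 in Stim1 HT EO and 15092 in Stim1 Ctrl EO, or 290 CPM, 768 CPM and 586 CPM. Against the controls this was a log2 fold change of -1.22, for which edgeR gave an adjusted p of 0.100. It was the only globin gene over 2-fold below both controls. Against Stim1 Ctrl its log2 ratio of -1.02 was close to the 2-fold limit, and that of the summed alpha pair was -0.51. Hbb-bs was at 465 CPM in Stim1 cKO EO, 1005 CPM in Stim1 HT EO and 597 CPM in Stim1 Ctrl EO. Hbb-bt was at 78.7 CPM, 203 CPM and 124 CPM in the same order. Both beta globin genes were lowest in Stim1 cKO and highest in Stim1 HT, with log2 fold changes of -0.79 and -1.05 (adjusted p 0.285 and 0.146, edgeR). Hba-a2 was the exception, at 185 CPM in Stim1 cKO EO, 193 CPM in Stim1 HT EO and 88.9 CPM in Stim1 Ctrl EO. Its level in Stim1 cKO thus lay between the controls, and its log2 fold change of 0.39 (adjusted p 0.617, edgeR) was -0.07 against Stim1 HT alone and 1.05 against Stim1 Ctrl alone.

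**Figure D1:**
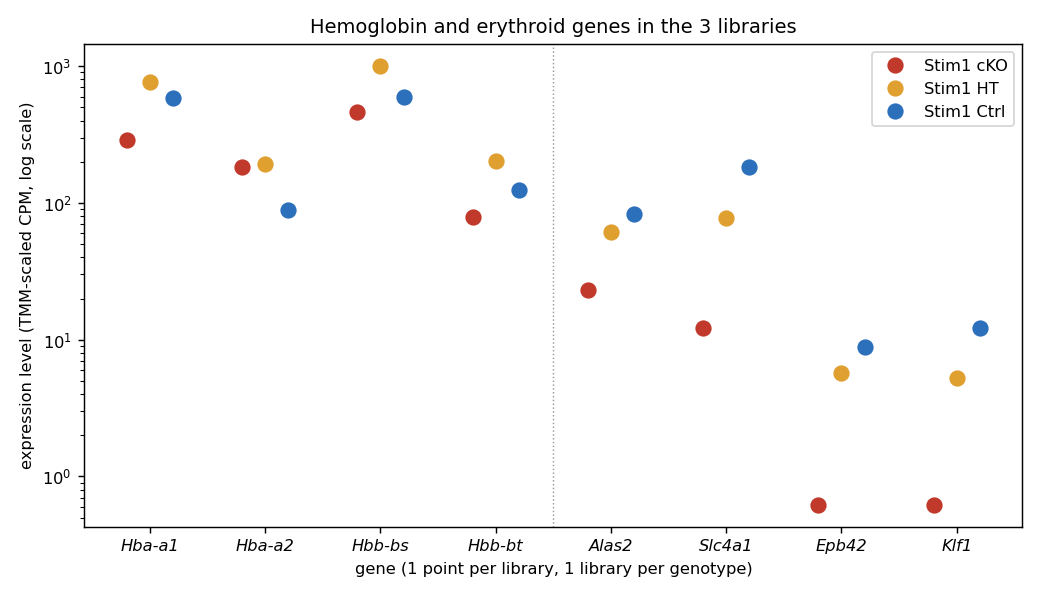
Expression level (TMM-scaled CPM, log scale) of the 4 globin genes, left of the dotted line, and the 4 other erythroid genes, right of it, with 1 point per library and no error bars since each genotype is 1 library. The globin genes are highest in Stim1 HT, with Hba-a2 only slightly above its level in Stim1 cKO. Alas2, Slc4a1, Epb42 and Klf1 are highest in Stim1 Ctrl and lowest in Stim1 cKO.

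The unlike patterns of Hba-a1 and Hba-a2 show in the split of the pair. Hba-a1 took 61.1% of the counts of the alpha pair in Stim1 cKO EO (95% Wilson interval 60.2 to 62.0), 79.9% in Stim1 HT EO (79.3 to 80.5) and 86.8% in Stim1 Ctrl EO (86.3 to 87.3). The beta pair was divided more evenly between libraries, with 85.5%, 83.2% and 82.8% of its counts on Hbb-bs. Wilson intervals here and below cover counting error within a library only. Summed as if each pair were 1 gene, alpha globin was at 475 CPM in Stim1 cKO EO, 961 CPM in Stim1 HT EO and 675 CPM in Stim1 Ctrl EO, and beta globin at 543 CPM, 1208 CPM and 721 CPM. The sums had log2 fold changes of -0.79 and -0.83, with adjusted p-values of 0.236 and 0.269 in edgeR and 0.0967 and 0.130 in DESeq2. The counts of alpha per count of beta globin were 0.873 in Stim1 cKO EO, 0.796 in Stim1 HT EO and 0.937 in Stim1 Ctrl EO. All 4 genes together made up 0.115% of the counts in Stim1 cKO EO (0.113 to 0.116), 0.211% in Stim1 HT EO (0.209 to 0.213) and 0.127% in Stim1 Ctrl EO (0.126 to 0.128). By this share, which does not use TMM scaling, globin RNA in Stim1 cKO lay close to Stim1 Ctrl, although their intervals did not overlap, and Stim1 HT stood above both.

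**Figure D2:**
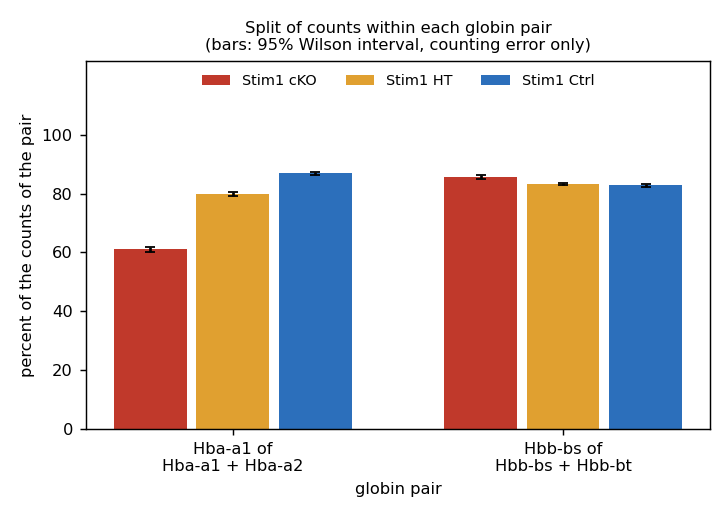
Percent of the counts of the alpha globin pair on Hba-a1 and of the beta globin pair on Hbb-bs in each library, as bars from 0, with 95% Wilson intervals for counting error. The alpha pair ranges from 61.1% in Stim1 cKO to 86.8% in Stim1 Ctrl, and the beta pair stays between 82.8% and 85.5%.

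The genes other than globins had larger gaps. Alas2, which encodes the erythroid enzyme of the first step of heme synthesis, is located on chromosome X (150547375 to 150570638). Its counts were 558 in Stim1 cKO EO, 1211 in Stim1 HT EO and 2151 in Stim1 Ctrl EO, or 23.1 CPM, 61.5 CPM and 83.6 CPM. This log2 fold change of -1.65 had an adjusted p of 0.0414 (edgeR), above the threshold. Of its exon bases, 15.5% overlap other genes, among them the antisense gene Apex2. Apex2 itself was at 9.25 CPM in Stim1 cKO EO, 8.88 CPM in Stim1 HT EO and 10.1 CPM in Stim1 Ctrl EO, and its part in the counts of Alas2 was not tested.

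Slc4a1 (chromosome 11, 102348824 to 102366203) encodes band 3, the anion exchanger that anchors the red cell skeleton. Its counts were 293 in Stim1 cKO EO, 1533 in Stim1 HT EO and 4687 in Stim1 Ctrl EO, or 12.1 CPM, 77.8 CPM and 182 CPM. The 3 libraries were thus far apart from each other, and the log2 fold change of Slc4a1 was -3.42 (adjusted p 0.0394, edgeR). Epb42 (chromosome 2, 121017891 to 121037072) encodes a protein that binds band 3 at the membrane. Its counts were 15 in Stim1 cKO EO, 112 in Stim1 HT EO and 228 in Stim1 Ctrl EO, or 0.620 CPM, 5.69 CPM and 8.86 CPM, a log2 fold change of -3.54 with an edgeR adjusted p of 0.0409. Klf1, the factor that activates beta globin and many other red cell genes, is located on chromosome 8 (84901928 to 84905291). Its counts were 15 in Stim1 cKO EO, 103 in Stim1 HT EO and 311 in Stim1 Ctrl EO, or 0.620 CPM, 5.23 CPM and 12.1 CPM. With a log2 fold change of -3.79 and an edgeR adjusted p of 0.0518, Klf1 had the largest gap of the 8 genes to the grouped controls, whereas the largest gap to Stim1 HT alone was that of Epb42, a log2 ratio of -3.20 against -3.08 for Klf1.

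On TMM-scaled CPM, Stim1 cKO was below both controls in 7 of the 8 genes (42.1% of all genes) and above both in 0 (43.6%). With the thresholds of the paper, edgeR called 0 of the 8 genes lower and 0 higher in Stim1 cKO, against 0% and 0.0749% of all genes tested. At an unadjusted p under 0.05, edgeR had 6 of the 8 lower (13.4% of all genes), and at an adjusted p under 0.05 it had 3, Alas2, Slc4a1 and Epb42 (2.88%). DESeq2, the tool of the paper, called 5 of the 8 lower, which were Hba-a1, Alas2, Slc4a1, Epb42 and Klf1, against 5.1% of all genes. Its log2 fold changes for these genes had standard errors of 0.324, 0.398, 0.531, 0.853 and 0.891. The alpha pair summed as 1 gene was not called by DESeq2 (adjusted p 0.0967). The call of Hba-a1 thus depends on the uncertain split of counts within the pair. The same 5 genes were over 2-fold below both controls, as were 8.23% of all genes, with Hba-a1 close to the limit against Stim1 Ctrl. Compared with Stim1 HT alone, 7 of the 8 were over 2-fold lower in Stim1 cKO (10.6% of all genes), and compared with Stim1 Ctrl alone, 5 (12.7%). The median log2 fold change was -1.44 over the 8 genes and -0.01 over all genes tested. These tests take their spread from the 2 control libraries, whose genotypes differ.

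Levels can be compared between genes only per length, as CPM per kb of exon. On this scale Hbb-bs had the highest level of the 8 genes in each library, at 605 in Stim1 cKO EO, 1309 in Stim1 HT EO and 777 in Stim1 Ctrl EO. Hba-a1 followed at 357, 946 and 722. Alas2 was at 9.59, 25.6 and 34.8, and Slc4a1 at 2.47, 15.9 and 37.2. Slc4a1 was therefore below Alas2 in Stim1 cKO and Stim1 HT, and slightly above it in Stim1 Ctrl. Klf1, at 0.405, 3.42 and 7.90, was above Epb42, at 0.114, 1.05 and 1.64, in each library. With 1 library per genotype, the spread behind this order is not known. The order of Hbb-bs and Hba-a1 also rests on the uncertain split of counts within each globin pair.

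The controls themselves differed in these genes, and globins and the other genes differed in opposite directions. Stim1 HT over Stim1 Ctrl gave log2 ratios of 0.39 for Hba-a1, 1.12 for Hba-a2, 0.75 for Hbb-bs and 0.71 for Hbb-bt, all higher in Stim1 HT. The log2 ratios were -0.44 for Alas2, -1.23 for Slc4a1, -0.64 for Epb42 and -1.21 for Klf1, all lower in Stim1 HT. Thus 4 of 4 globins were highest in Stim1 HT, as were 24.1% of all genes, and 4 of 4 other genes followed the order Stim1 cKO, Stim1 HT, Stim1 Ctrl from lowest to highest, as did 25.4% of all genes. For Hba-a2 the log2 ratio of Stim1 cKO to Stim1 HT was only -0.07. Its raw counts were 4467 in Stim1 cKO EO and 3807 in Stim1 HT EO, with TMM factors of 1.13 and 0.975. The place of Hba-a2 therefore depends on the scaling. Stim1 HT was below Stim1 Ctrl in 4 of the 8 genes, against 49.7% of all genes. The ratio exceeded 2-fold in 3 of the 8 (13.5% of all genes), of which Slc4a1 and Klf1 were lower (3.64%) and Hba-a2 was higher (9.82%). These are differences between 2 libraries and were not tested.

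To separate globin RNA from RNA of the other erythroid genes, the counts of each of the latter were taken per 1000 globin counts of the same library, a ratio that needs no scaling between libraries. Slc4a1 had 11.9 counts per 1000 globin counts in Stim1 cKO EO (95% Wilson interval 10.6 to 13.3), 35.9 in Stim1 HT EO (34.1 to 37.7) and 130 in Stim1 Ctrl EO (127 to 134). The ratio was thus 3.02 times as high in Stim1 HT as in Stim1 cKO, and 3.64 times as high in Stim1 Ctrl as in Stim1 HT. Per globin count, 83.8% of all genes tested were also lower in Stim1 HT than in Stim1 Ctrl. Klf1 had 0.609 in Stim1 cKO EO (0.369 to 1.00), 2.41 in Stim1 HT EO (1.99 to 2.92) and 8.65 in Stim1 Ctrl EO (7.74 to 9.68). Epb42 had 0.609, 2.62 and 6.34 in the same order. The ratio of Alas2 varied least, with 22.6 in Stim1 cKO EO (20.8 to 24.6), 28.3 in Stim1 HT EO and 59.9 in Stim1 Ctrl EO (57.3 to 62.5). For all 4 genes the interval in Stim1 cKO lay below those in both controls. Judged by the values alone, without intervals, 8.26% of all genes tested had a lower value per globin count in Stim1 cKO than in both controls. These intervals leave out the spread between mice.

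**Figure D3:**
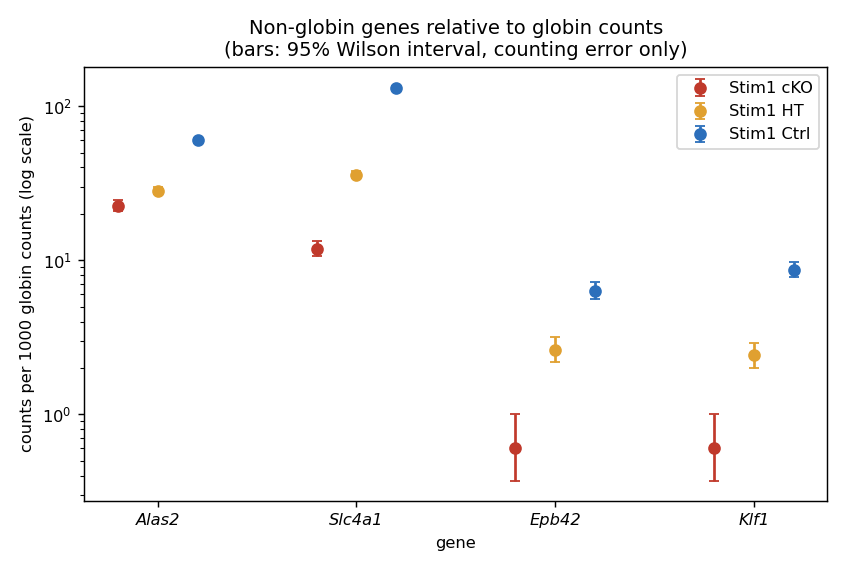
Counts of Alas2, Slc4a1, Epb42 and Klf1 per 1000 globin counts of the same library (log scale), with 95% Wilson intervals for counting error. Slc4a1 runs from 11.9 in Stim1 cKO to 130 in Stim1 Ctrl, and Alas2 from 22.6 to 59.9.

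Other genes of the red cell lineage were listed by role. Of 68 such genes, 59 are in the table and were tested, and the others, among them the embryonic globins and Ahsp, which encodes a chaperone of alpha globin, are not analysed here. edgeR called 0 of the 59, while 33 had an unadjusted p under 0.05 in the lower direction (13.4% of all genes) and 5 in the higher direction (18.5% of all genes). DESeq2 called 18 of the 59 lower (5.1% of all genes) and 1 higher (6.42% of all genes). The order Stim1 cKO, Stim1 HT, Stim1 Ctrl from lowest to highest was shown by 35 of them (25.4% of all genes).

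The red cell membrane list had the lowest median of the erythroid lists. Of its 17 genes, 11 were over 2-fold below both controls (8.23% of all genes), 10 were called lower by DESeq2 (5.1% of all genes), and the median log2 fold change was -1.95. Rhd, of the Rh complex, was at 0.661 CPM in Stim1 cKO EO, 12.4 CPM in Stim1 HT EO and 17.7 CPM in Stim1 Ctrl EO, with a log2 fold change of -4.50 and an edgeR adjusted p of 0.0208. Ank1, the ankyrin that ties spectrin to band 3, was at 46.2 CPM, 222 CPM and 280 CPM in the same order of libraries. Ermap, Kel and Rhag, which encode other surface proteins of red cells, had log2 fold changes of -3.33, -3.20 and -2.97. Of the list, Epb41, Dmtn, Add2 and Slc14a1 had log2 fold changes from 0.12 to 0.49. Genes of this list, lower or higher in Stim1 cKO, can also be expressed outside the red cell lineage. Which cells the RNA of the 17 genes came from was not tested.

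Among 11 transcription factors and cofactors, the median log2 fold change was -0.78, and 5 were over 2-fold below both controls (8.23% of all genes). Gata1, the master regulator of red cell formation, had 9 counts in Stim1 cKO EO, 128 in Stim1 HT EO and 225 in Stim1 Ctrl EO and a log2 fold change of -4.34, at an edgeR adjusted p of 0.0287. Nfe2 and Gfi1b, which also act in megakaryocytes, had log2 fold changes of -2.99 and -2.45. Tal1, which pairs with GATA1, was at 4.96 CPM in Stim1 cKO EO, 13.1 CPM in Stim1 HT EO and 21.3 CPM in Stim1 Ctrl EO. Of the 11, 3 were above both controls (43.6% of all genes). Among these was Bcl11a, a repressor of embryonic globin genes that neurons and B cells also express, at 119 CPM in Stim1 cKO EO, 32.7 CPM in Stim1 HT EO and 26.0 CPM in Stim1 Ctrl EO (adjusted p 0.0214, edgeR). The others were Myb and Gata2, with log2 fold changes of 1.09 and 0.48 (adjusted p 0.130 and 0.387, edgeR).

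Of 14 tested genes of nucleated erythroid precursors, 7 were over 2-fold below both controls (8.23% of all genes), and the median log2 fold change was -1.59. Car1, which encodes carbonic anhydrase 1, was at 0.578 CPM in Stim1 cKO EO, 6.90 CPM in Stim1 HT EO and 23.4 CPM in Stim1 Ctrl EO, with a log2 fold change of -4.70 and an edgeR adjusted p of 0.0519. Cldn13 had one of -4.44 (adjusted p 0.0281, edgeR), and Hemgn, which encodes hemogen, a nuclear protein of blood-forming cells, one of -3.87 (adjusted p 0.0308, edgeR). Epor, the erythropoietin receptor gene, was at 1.24 CPM, 6.35 CPM and 8.43 CPM in the same order of libraries. By contrast, 4 of the 14 genes were above both controls (43.6% of all genes). Sec14l4 led them, at 10.1 CPM in Stim1 cKO EO, 2.69 CPM in Stim1 HT EO and 2.02 CPM in Stim1 Ctrl EO. Against the grouped controls Sec14l4 differed by 2.10 log2 units, and edgeR put the adjusted p at 0.0606. Tfrc is the transferrin receptor gene that dividing cells of many types use for iron uptake. Its level was 178 CPM in Stim1 cKO EO, 112 CPM in Stim1 HT EO and 136 CPM in Stim1 Ctrl EO. Bnip3l and Rfesd were higher by 0.37 and 0.23 log2 units.

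The heme synthesis list differed less. Its 13 genes had a median log2 fold change of -0.71, and 2 of them were over 2-fold below both controls (8.23% of all genes). Fech, for the enzyme of the last step, had a log2 fold change of -1.08. Alas1, the form of the enzyme used outside red cells, was at 85.7 CPM in Stim1 cKO EO, 55.4 CPM in Stim1 HT EO and 76.1 CPM in Stim1 Ctrl EO, in contrast to Alas2.

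**Figure D4:**
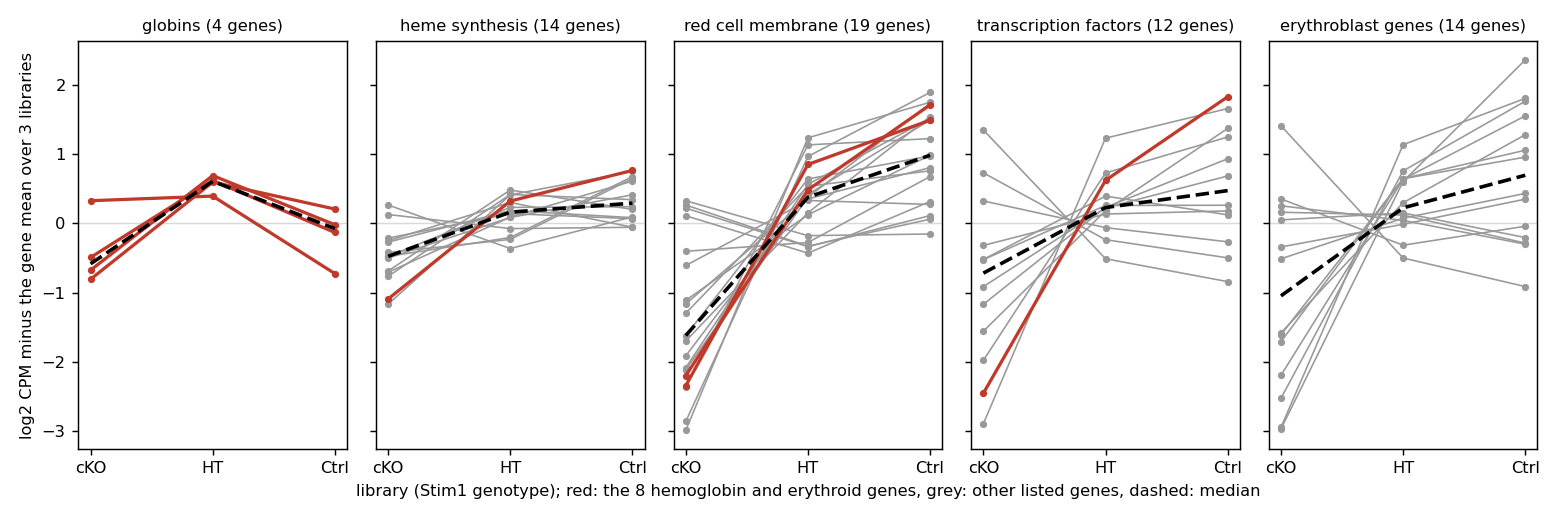
Log2 CPM of each tested gene minus its mean over the 3 libraries, for globins and for genes of heme synthesis, the red cell membrane, erythroid transcription factors and erythroblasts, with 1 line per gene, the 8 named genes in red and the median dashed. The globins peak in Stim1 HT, though Hba-a2 is nearly level between Stim1 cKO and Stim1 HT. Of the 17 membrane genes other than Slc4a1 and Epb42, 12 climb from Stim1 cKO through Stim1 HT to Stim1 Ctrl (25.4% of all genes). Slc4a1 and Epb42 climb as well.

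Relative to globin counts, 11 of 17 membrane genes, 5 of 11 factors, 7 of 14 precursor genes and 3 of 13 heme synthesis genes had a lower value in Stim1 cKO than in both controls, against 8.26% of all genes. All 55 of these genes had a lower value per globin count in Stim1 HT than in Stim1 Ctrl, but so had 83.8% of all genes, so this order was also that of most genes.

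Promoters of 7 of the 8 genes, from 250 bases before to 50 after the RefSeq start on GRCm38.p6, were searched for letters that GATA and KLF factors are known to favour. The GATA motif was AGATAA or TGATAA and the KLF motif CCNCNCCC, each on both strands. A GATA match was found in 6 of the 7 promoters, against 18.6% of all 32851 promoters, and a KLF match in 3 of the 7, against 49.5%. The other erythroid lists had 11 to 13 promoters each, of 9 to 11 genes, so their shares rest on few promoters. GATA matches were in 2 of 13 heme synthesis promoters (15.4%) and 6 of 13 membrane promoters (46.2%). They were in 3 of 13 factor promoters (23.1%) and 3 of 11 precursor promoters (27.3%). KLF matches were in 11 (84.6%), 8 (61.5%), 12 (92.3%) and 9 (81.8%) of them, in the same order. The promoters of Hba-a1 and Hba-a2 share almost all of their letters, so they are not separate cases. The promoters that stand for the globins and for each other role are shown, with matches to either motif in capitals. The promoter of Hba-a1, at chr11:32283422-32283721 on the plus strand, has a GATA match, and that of Hbb-bs, at chr7:103827879-103828178 on the minus strand, has a match to each motif. Alas2, at chrX:150547167-150547466 on the plus strand, has 1 GATA match and 4 KLF matches, which overlap in part. Epb42, at chr2:121036828-121037127 on the minus strand, and Klf1, at chr8:84901732-84902031 on the plus strand, each have a GATA match only.
Hba-a1: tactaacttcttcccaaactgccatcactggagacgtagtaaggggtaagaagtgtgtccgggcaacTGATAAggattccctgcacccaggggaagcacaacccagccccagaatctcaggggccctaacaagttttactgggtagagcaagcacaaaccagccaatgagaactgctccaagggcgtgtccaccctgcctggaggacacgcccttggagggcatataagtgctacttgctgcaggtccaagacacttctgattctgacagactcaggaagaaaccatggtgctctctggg
Hbb-bs: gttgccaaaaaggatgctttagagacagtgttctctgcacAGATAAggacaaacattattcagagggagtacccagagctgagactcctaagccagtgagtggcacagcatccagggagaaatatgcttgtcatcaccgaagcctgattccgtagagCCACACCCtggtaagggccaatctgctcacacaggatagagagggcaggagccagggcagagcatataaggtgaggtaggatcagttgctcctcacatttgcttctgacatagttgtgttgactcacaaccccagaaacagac
Alas2: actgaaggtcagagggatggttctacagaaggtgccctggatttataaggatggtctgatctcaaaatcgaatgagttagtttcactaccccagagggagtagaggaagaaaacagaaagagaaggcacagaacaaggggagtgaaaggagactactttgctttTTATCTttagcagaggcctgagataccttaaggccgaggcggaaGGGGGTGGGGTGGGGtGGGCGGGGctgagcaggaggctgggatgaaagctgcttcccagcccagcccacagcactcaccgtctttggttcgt
Epb42: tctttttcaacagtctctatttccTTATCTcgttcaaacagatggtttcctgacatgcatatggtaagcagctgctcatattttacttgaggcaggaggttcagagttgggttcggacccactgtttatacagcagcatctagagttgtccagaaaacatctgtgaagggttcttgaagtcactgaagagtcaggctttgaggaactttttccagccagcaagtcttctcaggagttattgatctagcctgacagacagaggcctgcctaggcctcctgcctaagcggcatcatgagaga
Klf1: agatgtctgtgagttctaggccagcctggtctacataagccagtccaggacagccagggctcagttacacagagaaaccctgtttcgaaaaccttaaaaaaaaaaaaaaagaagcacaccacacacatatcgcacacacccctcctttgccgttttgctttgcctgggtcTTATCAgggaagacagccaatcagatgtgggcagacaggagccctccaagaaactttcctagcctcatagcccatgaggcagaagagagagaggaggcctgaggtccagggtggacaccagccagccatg

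The promoter without a GATA match was that of Hbb-bt, which has a KLF match. A match is a description of these letters and no evidence of binding.

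Genes with the most similar pattern were sought among 14969 others with a mean of at least 50 counts, by the Euclidean distance of centred log2 CPM over the 3 libraries. With only 3 libraries, such likeness is a weak measure. The 10 genes nearest to the median profile of Slc4a1, Epb42 and Klf1 included the erythroid genes Trim10 and Hemgn at distances of 0.218 and 0.235. The nearest were Elane and Mpo, at 0.145 and 0.146, which encode neutrophil elastase and myeloperoxidase, granule proteins made by neutrophil precursors in the marrow. Musk and Chrng, genes of the neuromuscular junction, were at 0.324 and 0.309. The 10 nearest to the globin profile, led by Fkbp3 at 0.0288 and G0s2 at 0.0319, held 0 genes of the erythroid or marker lists.

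Markers of other cells also differed between the libraries. Mpo was at 2.02 CPM in Stim1 cKO EO, 17.0 CPM in Stim1 HT EO and 38.9 CPM in Stim1 Ctrl EO. Elane was at 0.578 CPM, 3.96 CPM and 9.40 CPM. Of 12 neutrophil genes, 9 were over 2-fold below both controls (8.23% of all genes), with a median log2 fold change of -3.07, and their summed level of 1513, 605 and 373 CPM went the other way because of Ltf, which glands also express, at 1441 CPM in Stim1 cKO. Of 8 osteoclast genes, 7 were over 2-fold below both controls, with a summed level of 380 CPM in Stim1 cKO EO, 1645 CPM in Stim1 HT EO and 1894 CPM in Stim1 Ctrl EO. Of 12 genes of dividing cells, 7 were so, with sums of 334, 705 and 909 CPM. The 10 endothelial genes, which mark vessels, summed to 352 CPM in Stim1 cKO EO, 696 CPM in Stim1 HT EO and 696 CPM in Stim1 Ctrl EO, 2 of them over 2-fold below both controls. The 10 macrophage genes summed to 163, 338 and 399 CPM, with 5 over 2-fold below both. Of the 9 tested platelet genes, 5 were over 2-fold below both controls, with a median log2 fold change of -1.45, while their sums of 83.7, 66.0 and 78.4 CPM were carried by Ppbp, with Pf4 at 8.59, 32.0 and 31.4 CPM and Ppbp at 55.9, 13.0 and 19.3 CPM. The 10 osteoblast and odontoblast genes summed to 33940, 43027 and 65626 CPM, with 2 over 2-fold below both. Of the 8 ameloblast genes, 3 were over 2-fold below both controls and 3 were above both, with a median log2 fold change of 0.02, and their sums of 4474, 31549 and 23275 CPM were mostly Amelx and Ambn. Only genes with at least 1 count in each library are listed, so a marker at 0 in a library would be missing. The markers Gp1ba, Vpreb2, Rag2 and Cd8a were not listed and have no value here. The part of these cells, and of blood or marrow taken up in dissection, in the erythroid values was not tested.

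**Figure D5:**
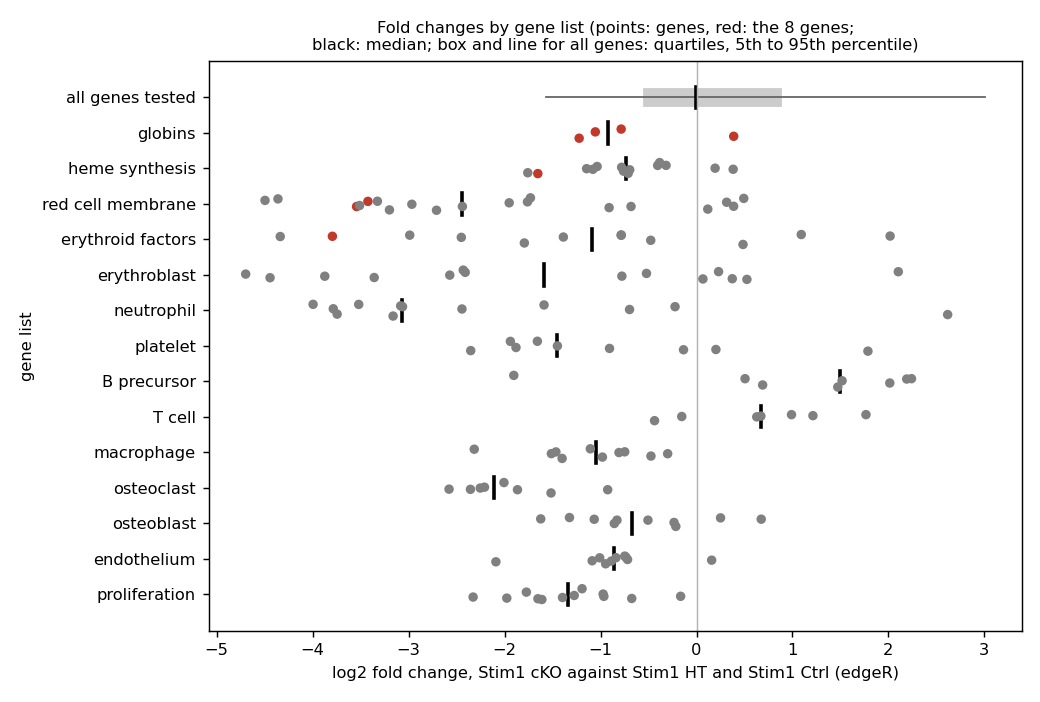
Log2 fold change of Stim1 cKO against the grouped controls in edgeR, with 1 point per gene for each list, the 8 named genes in red, a black bar at the median of the points, and the quartiles and 5th to 95th percentile of all genes tested at the top. The red cell membrane, erythroblast, neutrophil and osteoclast genes lie mostly left of 0, and the B cell precursor genes mostly right of it.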

How the data were processed

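The authors filtered and trimmed the paired-end reads and used STAR for alignment to the mouse genome. The genome build, annotation, counting tool, strand setting and treatment of reads with several matches are not given in the sources used here. The library kit was NEBNext Ultra II Directional according to the paper and SMARTER according to the labels, so whether strand was kept is uncertain. The authors deposited raw counts per gene symbol for 3 libraries, without normalization. A date stood in place of the symbol in 25 rows, which were kept.

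Counts were scaled by TMM and tested with edgeR 4.0.16 in R 4.3.3, with the filterByExpr filter, the quasi-likelihood test and Benjamini-Hochberg adjustment over 18702 genes. The residual degrees of freedom were 1 and the common dispersion 0.106. DESeq2 1.42.0 on the same genes, RLE, upper-quartile and library size scaling, other filters and thresholds, and leaving out each control were the alternatives. Wilson intervals of 95% were computed with scipy 1.17.1, and transcripts were compared with Biopython 1.88. Positions and exon lengths came from GENCODE M21, promoters from RefSeq on GRCm38.p6. The promoter of Slc4a1 and protein sequences were not analysed here.

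The 8 genes, the other erythroid genes and the marker lists were chosen with earlier results of these data known. Genes named were the 8, genes of those lists, and genes nearest to their profiles. Apex2 was named after its values were seen, because its exons overlap Alas2.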

Additional observations from a re-analysis of the deposited data

How the results depend on the processing

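No result here has a replicate, so the limits are those of 3 libraries. No paired analysis was possible because each genotype is 1 library. The number of the 8 genes called, 0 in the main test, was 5 with DESeq2, 1 (Slc4a1) without a filter on low counts and 3 at an adjusted p under 0.05. That of the other erythroid genes, also 0, was 19, 9 and 14. Calls over all genes rose too, from 14 higher and 0 lower to 687 and 220 without the filter. With DESeq2 they were 1107 and 880, and at an edgeR adjusted p under 0.05, 2.88% of all genes were lower. Both numbers stayed at 0 with RLE, upper-quartile or library size scaling, a mean of at least 50 counts and no fold change minimum, and that of the 8 also with globin pairs summed, an alternative chosen after seeing the data. Over all genes, edgeR called 0 lower with RLE scaling, library size scaling or a mean of at least 50 counts. It called 13 lower with upper-quartile scaling, so a count of 0 was not particular to the erythroid genes. Without Stim1 HT or Stim1 Ctrl no residual degrees of freedom were left, so these fits gave values with no test. Over the 10 alternatives of each of the 8 genes, 79 of 80 log2 fold changes kept their direction, the exception being Hba-a2, from -0.067 to 1.05 without either control. The alternatives with an adjusted p under 0.05 or no fold change minimum change only a threshold. Their fold changes are those of the main test and could not change direction. Adjusted p-values in edgeR ranged from 0.00811 to 0.0531 for Slc4a1, 0.0183 to 0.0544 for Epb42, 0.0209 to 0.0681 for Klf1 and 0.0137 to 0.0542 for Alas2. The median log2 fold change of all genes was 0.12 with upper-quartile and 0.25 with library size scaling, which moved the log2 fold change of Hbb-bs to -0.67 and -0.54. The share of globin counts in Stim1 cKO, Stim1 HT and Stim1 Ctrl was 0.121%, 0.217% and 0.131% without mitochondrially encoded genes, and 0.119%, 0.227% and 0.138% without Amelx, Ambn, Enam, Col1a1 and Col1a2, in the same order of libraries. All 4 non-globin genes stayed below both controls per globin count with alpha or beta globins alone or per exon length.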

Other observations

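Globins of other tissues did not follow those of the red cell. Mb, which encodes the myoglobin of muscle, was at 403 CPM in Stim1 cKO EO, 148 CPM in Stim1 HT EO and 228 CPM in Stim1 Ctrl EO. Cygb, the cytoglobin gene of fibroblasts, was nearly level at 51.3, 50.8 and 48.4 CPM. Ngb, the neuroglobin gene, had 39 counts in Stim1 cKO EO, 7 in Stim1 HT EO and 6 in Stim1 Ctrl EO. In edgeR's quasi-likelihood test and in DESeq2, 0 of these 3 genes were called, although Mb and Ngb had an unadjusted p under 0.05 in edgeR, with adjusted p-values of 0.116 for Mb, 0.902 for Cygb and 0.0822 for Ngb. Hbq1b, a theta-like globin, had 5, 20 and 38 counts, in the order of the membrane genes and not of the adult globins.

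Lymphocyte genes also differed from the erythroid genes. Cd79a of B cells was at 6.98 CPM in Stim1 cKO EO, 4.01 CPM in Stim1 HT EO and 0.894 CPM in Stim1 Ctrl EO, the reverse of the order of Slc4a1 and Klf1. The listed B cell precursor genes had a median log2 fold change of 1.49 and the T cell genes one of 0.67. Of the 8 tested genes of B cell precursors and 7 of T cells, 6 and 6 were over 2-fold higher in Stim1 HT than in Stim1 Ctrl, against 9.82% of all genes.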
